A study of Homo sapiens with 6 samples.

Results

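The genes described here are 10 named genes of the epithelial-mesenchymal transition (EMT): the transcription factors SNAI1, SNAI2, ZEB1, ZEB2 and TWIST1, the cadherins CDH1 and CDH2, vimentin (VIM), fibronectin (FN1) and β-catenin (CTNNB1). They were taken from the table by symbol, with earlier results of these data known. Of the 30716 genes in the table, 9 of these 10 had a row, 7 of the 9 averaged at least 0.5 FPKM and entered the test, and TWIST1 had no row and was not analysed here. FPKM are fragments per kilobase of transcript, scaled to the fragments of the library. RNA was sequenced from cells labelled as the SNU16 line and as gastric carcinoma cells, in 2 groups of 3 libraries each. The shENO1 cells were infected with a lentivirus that carries a short hairpin RNA against ENO1 and the shcon cells are labelled with a control shRNA. Puromycin selection is described for the shENO1 cells, and the sources used here give no hairpin sequence. The labels do not say whether the replicates were separate cultures, so p-values measure only the spread between these libraries, which may be technical. The study blotted the EMT proteins Snail, E-cadherin, N-cadherin and vimentin after ATP was added to permeabilized cells. It reports lower E-cadherin and higher N-cadherin, vimentin and Snail protein there. EMT-related proteins were also blotted after lactate treatment, and the study describes lower EMT markers after metformin with syrosingopine. Its blots of ENO1-knockdown cells are described as showing ENO1, stemness markers and signaling proteins. The comparison asks whether the transcripts behind the EMT proteins and their partners differed after ENO1 knockdown.

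EMT is a change of cell state in which epithelial cells loosen their junctions and take up mesenchymal traits. SNAI, ZEB and TWIST factors bind E-box sequences and repress epithelial genes, above all CDH1, the gene of E-cadherin, while N-cadherin, vimentin and fibronectin mark the mesenchymal state. β-catenin links cadherins to the cytoskeleton through α-catenin and, when freed from degradation, serves as a coactivator of Wnt target genes.

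The libraries held an estimated 15572386 to 16963883 fragments, so that 1 fragment per kilobase of transcript corresponded to 0.0589 to 0.0642 FPKM. ENO1, the gene of α-enolase, stood at 323, 312 and 386 FPKM in the shcon libraries and at 99.5, 84.9 and 91.1 FPKM in the shENO1 libraries, so the targeted gene was lower in every library labelled shENO1. Of the 7 epithelial markers listed for gastric cancer cells, KRT8 and KRT18 were abundant at means of 156 and 176 FPKM, EPCAM stood at only 1.11 FPKM, and KRT19 (0 to 0.0515 FPKM) and CDH17 (0.0161 to 0.158 FPKM) were at or near 0. FGFR2, known to be amplified in SNU16, had no row and was not analysed here. The identity of the line rests on the labels and was not tested. The epithelial markers summed to 415 to 544 FPKM in shcon and 196 to 229 FPKM in shENO1 libraries, nearly all of it KRT8 (log2 fold change -1.26, adjusted p = 0.00185) and KRT18 (-1.10, adjusted p = 0.00285), whereas EPCAM (-0.29, adjusted p = 0.111) and CLDN4 (mean 7.65 FPKM, 0.18, adjusted p = 0.52) did not pass. The fibroblast markers summed to 22.9 to 29.5 and 14.5 to 15.2 FPKM, led by LUM, DCN and COL1A1, with COL3A1, PDGFRB and FAP at or under 1.02 FPKM in every library. Endothelial markers summed to 9.32 to 16.5 and 3.87 to 5.01 FPKM, nearly all of it CDH5, and leukocyte markers to at most 1.38 FPKM. In bulk RNA, fewer cells of a type and less RNA per cell cannot be told apart.

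Among the 7 tested genes, 3 were higher in shENO1 cells (SNAI1, ZEB1 and VIM), 1 was lower (FN1) and 3 did not pass the test (SNAI2, CDH1 and CTNNB1). The test was limma on log2(FPKM + 1) with an adjusted p threshold of 0.05 over 15181 genes, of which 29.5% were called, 15.1% as higher and 14.4% as lower, so that 4 of 7 (57.1%) must be read against a background that is itself broad. The groups did not overlap for the same 4 of the 7 genes, as for 46.6% of all genes tested. The median log2 fold change of the 7 genes was 0.16, compared with 0.03 over all genes tested. The set therefore did not move in 1 direction: 2 repressors of the epithelial state and vimentin rose, whereas fibronectin, another mesenchymal gene, fell.

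**Figure D1:**
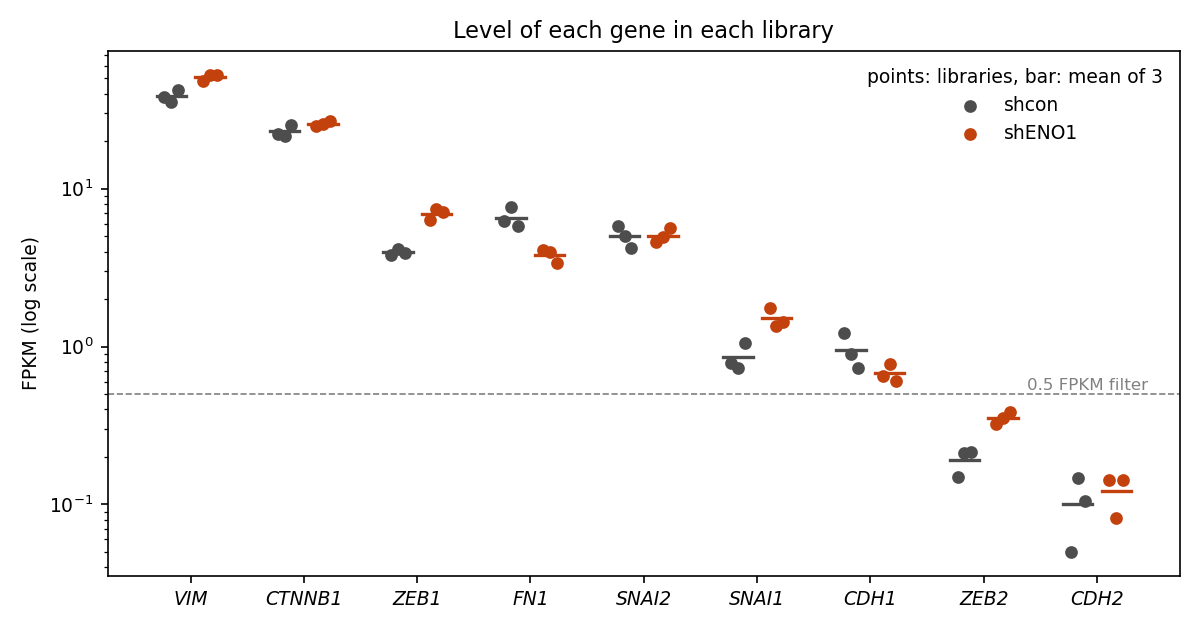
FPKM (log axis) of the 9 genes with a row, ordered by their mean, in each of the 3 shcon (grey) and 3 shENO1 (orange) libraries; bars are group means and the dashed line is the filter of 0.5 FPKM. The shENO1 points lie above all shcon points for SNAI1, ZEB1, ZEB2 and VIM and below them for FN1, and they overlap for SNAI2, CDH1, CDH2 and CTNNB1.

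Per length, VIM was the most abundant of the genes, with a mean of 44.8 FPKM over the 6 libraries, above 94.6% of the genes tested. CTNNB1 followed at 24.5 FPKM, then ZEB1 at 5.45, FN1 at 5.18 and SNAI2 at 5.03 FPKM. The ranges of ZEB1, FN1 and SNAI2 overlapped, so these 3 cannot be ordered. SNAI1 (1.19 FPKM) and CDH1 (0.813 FPKM) also overlapped, and CDH1 exceeded only 10.8% of the genes tested. ZEB2 (0.273 FPKM) and CDH2 (0.111 FPKM) were the lowest. The cells of both groups thus held far more transcript of vimentin than of either cadherin, and ZEB1 was the more abundant of the ZEB pair and SNAI2 of the SNAI pair.

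A trend over base composition runs through the comparison and bears on each value that follows. Over the 7441 genes averaging 5 FPKM or more, the log2 fold change fell as GC content rose (Spearman's rho = -0.70, given as a description, since all genes share the same 6 libraries). The 10% of genes with the highest GC content deviated from their means by a median of 0.39, 0.29 and 0.16 in shcon replicates 1, 2 and 3 and of -0.03, -0.38 and -0.42 in shENO1 replicates 1, 2 and 3 on the log2 scale. The shift therefore lay mainly in 4 libraries, with shcon replicate 3 and shENO1 replicate 1 nearest to the middle. Fold changes are given as measured and, for most genes named, again with each library's trends over GC content and transcript length removed, a fit in which 22.4% of 15031 genes were called (12.1% as higher and 10.3% as lower). Removing a trend also removes any biology that follows it, and the source of the trend was not tested.

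**Figure D2:**
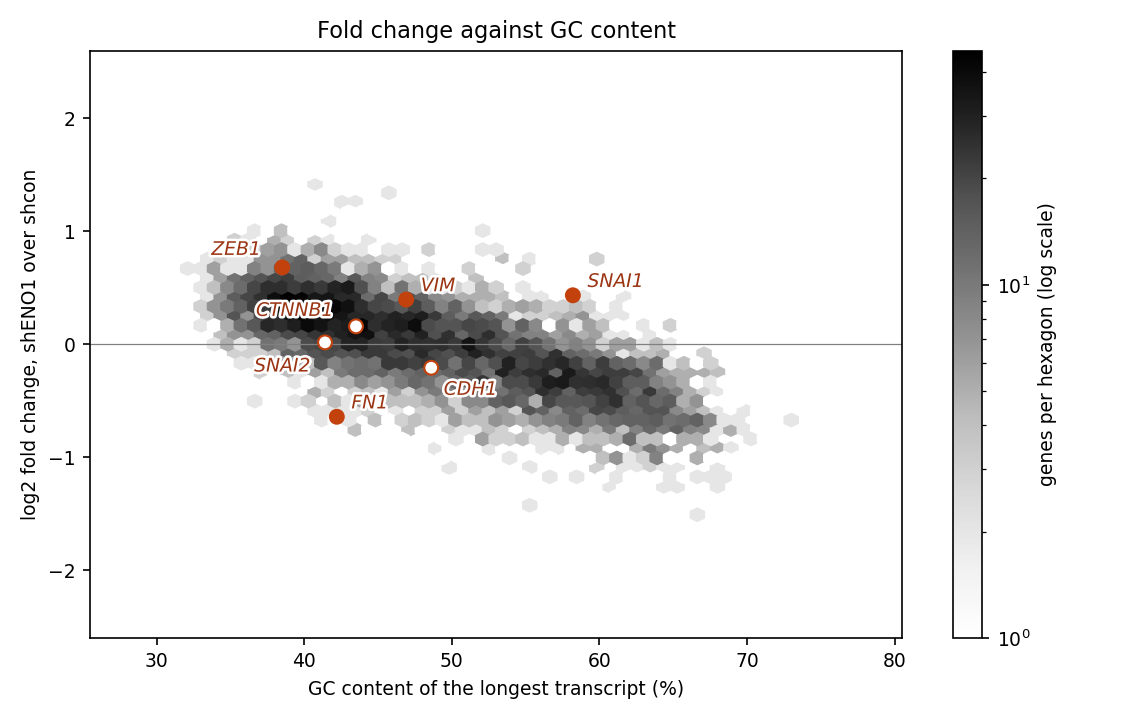
Log2 fold change of shENO1 over shcon against the GC content of the longest transcript, as hexagons counting genes that averaged 5 FPKM or more (log grey scale) and as orange points for the 7 tested genes (filled where called, open where not). ZEB1 (38.5% GC) lies within the rising GC-poor cloud, SNAI1 (58.2%) stands above and FN1 (42.2%) below the genes of like composition.

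ZEB1, a zinc-finger repressor of CDH1 that is held in check by the miR-200 family, rose from 3.95 ± 0.178 to 6.95 ± 0.542 FPKM (SD, n = 3 each), a ratio of 1.76. The gene (ENSG00000148516) lies on chromosome 10 of GRCh38, plus strand, from 31318495 to 31529814. Its levels were 3.78, 4.14 and 3.94 FPKM in shcon and 6.35, 7.41 and 7.07 FPKM in shENO1 replicates 1, 2 and 3. Every shENO1 library was above every shcon library, with the difference several times the spread within a group. The values rest on 533 to 572 fragments per shcon library and 897 to 1088 per shENO1 library. The log2 fold change was 0.68 (standard error 0.09, 95% interval 0.47 to 0.89, adjusted p = 0.00417). With the trends removed it shrank to 0.29 (95% interval 0.14 to 0.44, adjusted p = 0.0194), more than 1.5 times smaller but still past the threshold, and the call was kept in all 22 alternatives.

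The antisense gene ZEB1-AS1, which starts divergently from the ZEB1 promoter region, shares 366 exonic bases with ZEB1 on the opposite strand. Its levels were 0.636, 0.827 and 0.857 FPKM in shcon and 1.35, 1.54 and 1.91 FPKM in shENO1 libraries, with no overlap of the groups. The log2 fold change of ZEB1-AS1 was 0.55 (standard error 0.13, adjusted p = 0.0176) and 0.38 with the trends removed (adjusted p = 0.0489). The sources used here do not state the strand setting of the counting, so reads of the shared bases cannot be assigned to either gene. ZEB1-AS1 held 40 to 115 estimated fragments per library, against at least 533 for ZEB1.

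The region around the ZEB1 start is shown because ZEB1 is itself an E-box factor and because ZEB1 and its antisense partner rose together. RefSeq lists 7 start windows for ZEB1, each from 250 bases before to 50 bases after a start site. Of these, the window with the most matches to the E-box CAGGTG, searched on both strands, lies on chr10:31318966-31319265 (GRCh38.p14, plus strand). This window alone is printed, with the matches in capitals.
ZEB1 start window: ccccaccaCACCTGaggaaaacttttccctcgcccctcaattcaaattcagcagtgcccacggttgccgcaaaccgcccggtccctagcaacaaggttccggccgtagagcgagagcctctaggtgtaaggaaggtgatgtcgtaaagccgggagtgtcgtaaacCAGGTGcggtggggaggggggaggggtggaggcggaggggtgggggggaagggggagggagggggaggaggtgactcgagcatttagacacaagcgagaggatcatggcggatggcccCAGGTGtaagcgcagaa
It holds 3 matches, which begin 242 and 85 bases before and 33 bases after the start site. Of the 7 windows, 1 other holds a single match, and the windows of ZEB2, CDH2, VIM, FN1 and CTNNB1 hold none, while 20.6% of all 35116 windows hold at least 1. A match is only a run of letters, and binding was not measured here.

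ZEB2, the paralog of ZEB1 with the same targets, was under the filter of 0.5 FPKM. The gene (ENSG00000169554) lies on chromosome 2, minus strand, from 144364364 to 144521057. Its levels were 0.15, 0.211 and 0.214 FPKM in shcon and 0.321, 0.354 and 0.384 FPKM in shENO1 libraries, which do not overlap and give a ratio of the means of 1.84. A two-sided exact permutation test gave p = 0.1, the smallest value that 3 libraries against 3 allow. The length used for ZEB2, 26103 bases fitted near the summed exons of the gene, gave it more fragments than shorter genes of its FPKM. They were an estimated 64 to 93 per shcon and 137 to 157 per shENO1 library. On these fragments, in a limma-voom fit of 30606 genes without the filter, in which 15.1% were called, the log2 fold change was 0.89 (standard error 0.21, adjusted p = 0.0102). With the trends removed from that fit, in which 8.22% of 29639 genes were called, it was 0.35 (95% interval -0.07 to 0.76, adjusted p = 0.319). On the log2(FPKM + 1) scale, which compresses values this low, the difference was 0.18 (adjusted p = 0.0958 without the filter) and turned to -0.31 when both trends were subtracted in full. The call for ZEB2, and on that scale its direction, therefore depended on the treatment of the trends.

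SNAI1, the gene of Snail, rose from 0.862 ± 0.173 to 1.51 ± 0.218 FPKM (SD, n = 3 each), by the same ratio of 1.76 as ZEB1 but at a much lower level. The gene (ENSG00000124216) lies on chromosome 20, plus strand, from 49982980 to 49988886. Its levels were 0.792, 0.734 and 1.06 FPKM in shcon and 1.76, 1.35 and 1.43 FPKM in shENO1 replicates 1, 2 and 3. The groups did not overlap, and the gap between them was that from shcon replicate 3 to shENO1 replicate 2. An estimated 20 to 49 fragments per library lie behind these values. The log2 fold change on the log2(FPKM + 1) scale, which understates changes of genes at such low levels, was 0.43 (standard error 0.13, 95% interval 0.14 to 0.73, adjusted p = 0.0366). SNAI1 is the most GC-rich of the genes, so its rise ran against the trend, and with the trends removed the value was 0.88 (95% interval 0.64 to 1.12, adjusted p = 0.00316). The trends were estimated on genes above 5 FPKM and were subtracted in full from values that the pseudocount compresses.

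The call of SNAI1 was less firm than that of ZEB1. It was lost without the filter (adjusted p = 0.106), under quantile normalization (adjusted p = 0.0688) and in limma-voom on the fragments with the filter (0.80 on the log2 scale, adjusted p = 0.0539) or without it (0.81, adjusted p = 0.11). It was also lost when shcon replicate 1 (adjusted p = 0.118), shcon replicate 2 (0.104), or shENO1 replicate 1 (0.0893), 2 (0.0826) or 3 (0.0894) was left out, with fold changes between 0.36 and 0.48 on the log2 scale. Without shcon replicate 3 the value was 0.51 (adjusted p = 0.0206). The direction was the same in every one of these fits.

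SNAI2, the gene of Slug and a close relative of Snail, did not pass the test. The gene (ENSG00000019549) lies on chromosome 8, minus strand, from 48917598 to 48921740. Its levels were 5.84, 4.98 and 4.2 FPKM in shcon and 4.61, 4.94 and 5.6 FPKM in shENO1 libraries, and the groups overlapped fully. With 229 to 312 fragments per library, the log2 fold change was 0.02 with a 95% interval of -0.27 to 0.30 (adjusted p = 0.935), and -0.19 with the trends removed (95% interval -0.57 to 0.20, adjusted p = 0.444). Its sign depended on the scaling and was negative under quantile normalization, median-of-ratios scaling and removal of the GC trend.

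CDH1, the gene of E-cadherin and the best known target of the factors above, was scarce in both groups and did not pass the test. The gene (ENSG00000039068) lies on chromosome 16, plus strand, from 68737292 to 68835537. Its levels were 1.21, 0.896 and 0.733 FPKM in shcon and 0.655, 0.776 and 0.602 FPKM in shENO1 replicates 1, 2 and 3. The groups overlapped, since shENO1 replicate 2 exceeded shcon replicate 3. An estimated 57 to 120 fragments per library gave a log2 fold change of -0.21 (95% interval -0.52 to 0.11, adjusted p = 0.274), and with the trends removed it was -0.28 (95% interval -0.60 to 0.04, adjusted p = 0.18). The value was negative in each alternative, from -0.53 in limma-voom with the trends removed to -0.11, and its adjusted p ranged from 0.136 to 0.632.

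CDH2, the gene of N-cadherin, was barely detected. The gene (ENSG00000170558) lies on chromosome 18, minus strand, from 27932879 to 28177946. Its levels were 0.0501, 0.146 and 0.105 FPKM in shcon and 0.143, 0.0824 and 0.142 FPKM in shENO1 libraries, an estimated 7 to 20 fragments each. The groups overlapped (two-sided exact permutation test, p = 0.7), and the log2 fold change of 0.35 in limma-voom without the filter had a 95% interval of -0.64 to 1.35 (adjusted p = 0.637). On the log2(FPKM + 1) scale the difference was 0.03, and -0.14 with both trends subtracted.

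VIM, which encodes the type III intermediate filament of mesenchymal cells, rose from 38.6 ± 3.49 to 51.0 ± 2.59 FPKM (SD, n = 3 each), a ratio of 1.32. The gene (ENSG00000026025) lies on chromosome 10, plus strand, from 17228241 to 17237593. Its levels were 38.2, 35.4 and 42.3 FPKM in shcon and 48.1, 52.2 and 52.8 FPKM in shENO1 replicates 1, 2 and 3, with no overlap. The values rest on 2927 to 4587 fragments per library. The log2 fold change was 0.40 (standard error 0.10, 95% interval 0.17 to 0.62, adjusted p = 0.0201), and 0.28 with the trends removed (95% interval 0.13 to 0.44, adjusted p = 0.0228). VIM lost its call without shcon replicate 1 (0.39, adjusted p = 0.0776), shcon replicate 2 (0.34, adjusted p = 0.0685), shENO1 replicate 2 (0.38, adjusted p = 0.0885) or shENO1 replicate 3 (0.37, adjusted p = 0.0835), and in limma-voom with the trends removed (0.28, adjusted p = 0.0549). VIM-AS1, which shares 641 exonic bases with VIM on the opposite strand, stood at 2.22 ± 0.402 and 2.25 ± 0.434 FPKM (SD, n = 3), a log2 fold change of 0.01 (adjusted p = 0.957) and of -0.19 with the trends removed (adjusted p = 0.288).

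The VIM promoter is printed to set it beside that of ZEB1, since both genes rose. The window is chr10:17227991-17228290 (GRCh38.p14, RefSeq, plus strand), and capitals mark the GC box GGGCGG, searched on both strands.
VIM start window: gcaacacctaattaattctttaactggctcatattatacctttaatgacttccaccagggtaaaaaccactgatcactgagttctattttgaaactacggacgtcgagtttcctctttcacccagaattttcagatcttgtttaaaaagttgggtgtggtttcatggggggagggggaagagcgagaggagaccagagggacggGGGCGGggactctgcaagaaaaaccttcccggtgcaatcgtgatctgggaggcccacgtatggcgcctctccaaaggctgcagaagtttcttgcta
The single GC box begins 46 bases before the start site, and 45.0% of all windows hold at least 1. There is no E-box CAGGTG, and neither the cAMP response element TGACGTCA nor the AP-1 motif TGANTCA nor a TATAAA was found in these letters.

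FN1, the gene of fibronectin, an adhesive glycoprotein of the matrix, fell from 6.55 ± 0.975 to 3.82 ± 0.384 FPKM (SD, n = 3 each), to 58.4% of its control level. The gene (ENSG00000115414) lies on chromosome 2, minus strand, from 215360440 to 215436073. Its levels were 6.21, 7.64 and 5.79 FPKM in shcon and 4.08, 4 and 3.38 FPKM in shENO1 libraries. All shENO1 libraries were below all shcon libraries. Estimated fragments ran from 1656 to 2103 per shcon and from 906 to 1168 per shENO1 library, and the log2 fold change was -0.64 (standard error 0.12, 95% interval -0.92 to -0.36, adjusted p = 0.009). FN1 is GC-poor, so it too ran against the trend, and with the trends removed the value was -1.04 (95% interval -1.24 to -0.84, adjusted p = 0.00119), over 1.5 times larger. The call was kept in all 22 alternatives. Of 9 fibroblast markers, 6 had a row and 4 were tested. As measured, 3 of the 4 were lower, against 14.4% of all genes, and with the trends removed 2 were, against 10.3%. DCN had a log2 fold change of -1.44 (adjusted p = 0.00184), and -1.89 with the trends removed (adjusted p = 0.000729). LUM stood at -0.48 (adjusted p = 0.0097) and -0.77 (adjusted p = 0.00282). PDGFRB passed as measured (-0.63, adjusted p = 0.0135) but not with the trends removed (-0.43, adjusted p = 0.0541). COL1A1 passed in neither fit (-0.27, adjusted p = 0.443, and 0.03, adjusted p = 0.911). The part of these markers in the FN1 result was not tested.

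The FN1 promoter is shown as that of the 1 gene that fell. Its window on chr2:215436019-215436318 (GRCh38.p14, RefSeq, minus strand, printed 5′ to 3′) carries the cAMP response element TGACGTCA, a palindrome, in capitals.
FN1 start window: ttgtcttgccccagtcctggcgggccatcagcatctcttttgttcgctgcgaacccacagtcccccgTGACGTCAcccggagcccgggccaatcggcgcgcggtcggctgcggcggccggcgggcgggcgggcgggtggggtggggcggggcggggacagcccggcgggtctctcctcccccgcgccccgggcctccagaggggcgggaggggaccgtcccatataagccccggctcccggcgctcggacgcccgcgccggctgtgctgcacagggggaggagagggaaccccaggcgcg
The element begins 183 bases before the start site and is present in 1.85% of all windows. Several motifs were searched in every window, and the one marked differs between the genes printed. The share of 1.85% therefore does not measure how particular the element is to FN1. The same window has a GC content of 76.7% and 6 matches to GGGCGG, some of them overlapping, whereas the VIM window has a GC content of 48.0%. None of the windows of ZEB1, ZEB2, CDH2, VIM and CTNNB1 holds TGACGTCA. For SNAI1, SNAI2, CDH1 and TWIST1 no window was searched.

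CTNNB1, the gene of β-catenin, did not pass the test. The gene (ENSG00000168036) lies on chromosome 3, plus strand, from 41194741 to 41260096. Its levels were 22.3, 21.5 and 25.4 FPKM in shcon and 25.0, 25.7 and 26.8 FPKM in shENO1 replicates 1, 2 and 3. Only shcon replicate 3 reached into the shENO1 range. The log2 fold change was 0.16 (95% interval -0.05 to 0.37, adjusted p = 0.221), from 4045 to 5118 fragments per library. Without shcon replicate 3 it was 0.23 and passed (adjusted p = 0.047), and with the trends removed its sign turned, at -0.14 (95% interval -0.36 to 0.08, adjusted p = 0.315).

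**Figure D3:**
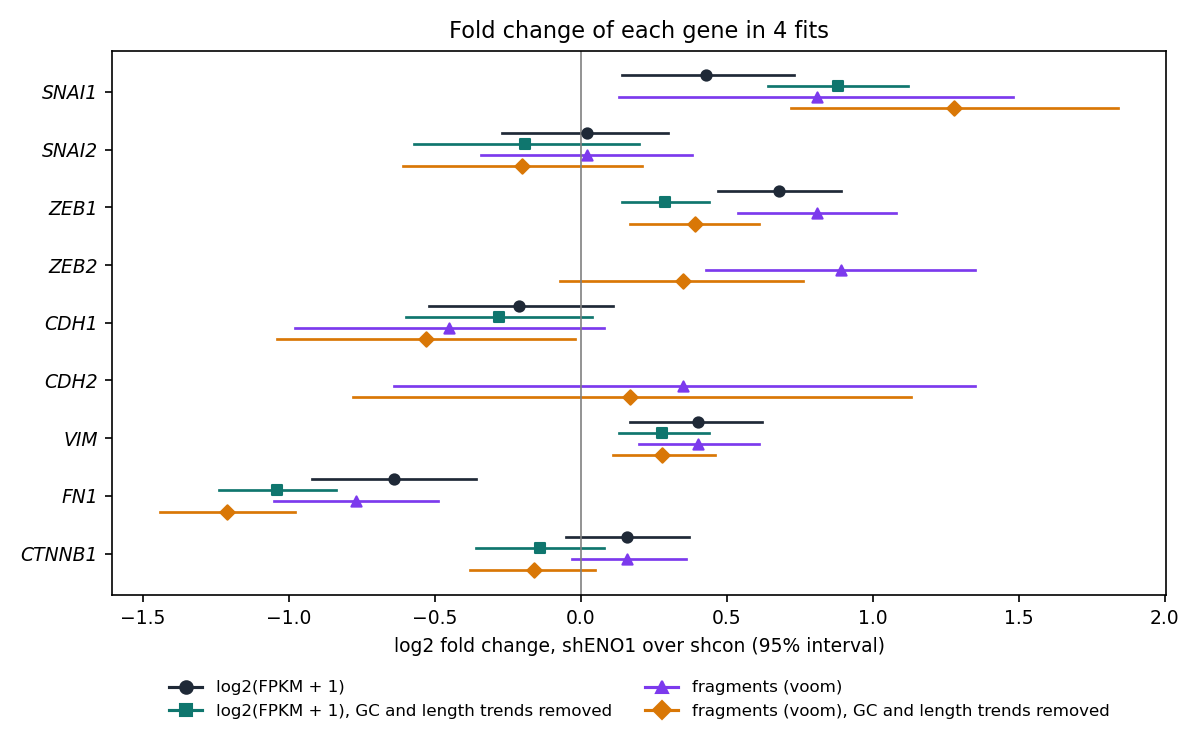
Log2 fold change of shENO1 over shcon with its 95% interval for each gene, in limma on log2(FPKM + 1) (black), the same with the GC and length trends removed (green), limma-voom on recovered fragments without the filter (purple) and the last with the trends removed (ochre). The intervals of ZEB1, VIM and SNAI1 lie above 0 and those of FN1 below 0 in all 4 fits, while the CTNNB1 and SNAI2 estimates change side.

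For each gene called, the genes with the most similar profile over the 6 libraries were taken from the 7302 or 7303 other genes averaging 5 FPKM or more. LPGAT1 (Pearson's r = 0.9998) and SRPK1 (r = 0.9992) were closest to ZEB1, and 779 genes correlated with it above 0.95. For VIM they were CLPX (r = 0.9955) and NIPA2 (r = 0.9954), with 655 genes above 0.95. SNAI1, with an estimated 20 to 49 fragments per library, had 51 above 0.95, led by the amino acid transporter SLC1A5 (r = 0.9935) and ADGRE5 (r = 0.9919). For FN1 there were 122, led by CDK11B (r = 0.9948) and CDC45 (r = 0.9893). These correlations describe 6 libraries in 2 groups and carry no p. The part of fragment numbers and of the GC trend in the counts above 0.95 was not tested.

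The surroundings of these genes were described by 14 gene lists, in which the calls are to be read against the shares among all genes, 15.1% higher and 14.4% lower as measured and 12.1% higher and 10.3% lower with the trends removed, and medians against 0.03 in both fits. Of 6 tested EMT transcription factors outside the genes above, 1 was lower, none was higher and the median log2 fold change was -0.21. TWIST2, the paralog of TWIST1, fell from 18.8 ± 0.211 to 12.9 ± 1.84 FPKM (SD, n = 3; log2 fold change -0.52, adjusted p = 0.0124), without overlap of the groups. TWIST2 stood at -0.13 with the trends removed (adjusted p = 0.173), when none of the 6 was lower and 2 were higher. Per length, TWIST2, TCF3 (mean 22.6 FPKM) and FOXC1 (mean 26.8 FPKM) were each more abundant than any of the SNAI or ZEB transcripts. TCF3 and FOXC1 were named after their values were seen.

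Most corepressors and partners of the ZEB and SNAI factors did not pass the test: of 14 tested, 3 rose and 1 fell, with a median of 0.16. The scaffold SIN3A (log2 fold change 0.41, adjusted p = 0.0344) and the histone methyltransferase EZH2 (0.40, adjusted p = 0.0169) rose and the deacetylase HDAC1 fell (-0.31, adjusted p = 0.0386). After removal of the trends EZH2 (0.18, adjusted p = 0.0487) and HDAC1 (-0.37, adjusted p = 0.00606) kept their calls and SIN3A did not (0.21, adjusted p = 0.0921), and over the list 1 gene was then higher and 1 lower.

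Of 16 tested genes whose products set the stability of Snail protein, 7 rose and none fell, with a median of 0.27. COPS2, a subunit of the COP9 signalosome, rose from 16.9 ± 2.35 to 30.0 ± 3.56 FPKM (SD, n = 3; log2 fold change 0.79, adjusted p = 0.00621), and the ubiquitin ligase MDM2 (0.61, adjusted p = 0.00833) and the deubiquitinase USP37 (0.60, adjusted p = 0.0093) rose as well. The list joins factors that protect Snail and factors that degrade it, so its direction has no single reading. Once the trends were removed, 2 of the 16 were higher, none was lower and the median was 0.06, COPS2 at 0.32 (adjusted p = 0.0129), MDM2 at 0.25 (adjusted p = 0.081) and USP37 at 0.22 (adjusted p = 0.168).

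Among 7 tested epithelial regulators, 2 rose, 3 fell and 2 were not called. KLF5, a Krüppel-like factor of epithelia, rose from 85.2 ± 10.1 to 151 ± 5.09 FPKM (SD, n = 3; log2 fold change 0.83, adjusted p = 0.00384; 0.76 with the trends removed, adjusted p = 0.00717). The ETS factor ELF3 fell (-0.66, adjusted p = 0.00481; -0.51 with the trends removed, adjusted p = 0.00796), as did KLF4 (-0.56, adjusted p = 0.011; -0.37, adjusted p = 0.0396), and with the trends removed 1 of the 7 was higher and 2 were lower. GRHL2, OVOL1 and OVOL2, which oppose ZEB1 in epithelial cells, were at most at 0.127 FPKM in any library, and the splicing factor ESRP1 and the miR-200c host gene MIR200CHG had no row and were not analysed here.

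Of 10 tested epithelial genes known as targets of ZEB or SNAI repression, 5 fell, 1 rose and 4 were not called, with a median of -0.33. The epithelial adaptor subunit AP1M2 fell from 14.5 ± 3.84 to 7.51 ± 1.69 FPKM (SD, n = 3; log2 fold change -0.86, adjusted p = 0.0197), and the desmosomal plakophilin PKP3 fell from 26.8 ± 2.58 to 15.7 ± 3.34 FPKM (-0.74, adjusted p = 0.0109). The 1 gene that rose was MAL2 (log2 fold change 0.93, adjusted p = 0.00411; 0.67 with the trends removed, adjusted p = 0.0111), at a mean of 0.915 FPKM and named after its values were seen. In the fit without the trends 2 were lower and 2 higher, the median was -0.14, and neither AP1M2 (-0.53, adjusted p = 0.0545) nor PKP3 (-0.13, adjusted p = 0.164) passed. EPCAM, at 1.11 FPKM, did not pass in either fit, and RAB25 was at most at 0.038 FPKM.

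The partners of the cadherins at the junction were mostly not called: of 11 tested genes of the cadherin-catenin complex and the nectins, 1 rose and 2 fell, with a median of 0.05. CTNNBIP1, an inhibitor of β-catenin that is listed here and among its nuclear partners, fell (log2 fold change -0.63, adjusted p = 0.0114), JUP (plakoglobin) fell from 148 ± 17.6 to 111 ± 14.9 FPKM (SD, n = 3; -0.42, adjusted p = 0.0459) and NECTIN3 rose (0.38, adjusted p = 0.0251). None of the 3 passed with the trends removed, where the values were -0.34 (adjusted p = 0.0957), -0.05 (adjusted p = 0.583) and 0.03 (adjusted p = 0.764), and no gene of the list was called in that fit. Per length, JUP at a mean of 129 FPKM and α-catenin CTNNA1 at 60.9 FPKM were far more abundant than CDH1 or CDH2.

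Of 21 other cadherins, 17 had a row and only 3 reached the filter, CDH5, CDH13 and CDH24. CDH5, the cadherin of endothelial cells, stood at 16.2, 16.3 and 9.24 FPKM in shcon and at 4.91, 4.95 and 3.82 FPKM in shENO1 libraries. Its mean of 13.9 FPKM in shcon cells was above the levels of CDH1 and CDH2 per length, and the groups did not overlap. The log2 fold change of CDH5 was -1.39 (standard error 0.21, adjusted p = 0.00513) and -1.27 with the trends removed (adjusted p = 0.00593). The other endothelial markers PECAM1, VWF, CLDN5 and TEK were at most at 0.108 FPKM in any library. CDH3, the gene of P-cadherin, did not exceed 0.0864 FPKM.

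Genes of cadherin shedding and endocytosis changed in both directions, with 4 higher, 3 lower and 5 not past the threshold of 12 tested. The metalloprotease ADAM15 fell from 55.8 ± 5.76 to 34.6 ± 4.53 FPKM (SD, n = 3; log2 fold change -0.68, adjusted p = 0.00813) and the γ-secretase subunit PSENEN fell (-0.62, adjusted p = 0.00664), while ADAM10, a sheddase of E-cadherin, rose (0.49, adjusted p = 0.00981). Without the trends ADAM15 (-0.24, adjusted p = 0.0188) and PSENEN (-0.40, adjusted p = 0.0303) were still called, ADAM10 stood at 0.01 (adjusted p = 0.973) and no gene of the list was higher.

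On the side of β-catenin, 5 of 15 tested genes listed for the destruction complex were higher and 1 was lower. The median was 0.25. The list joins genes of the complex and the tankyrases TNKS and TNKS2, which oppose it, so its direction has no single reading. The tankyrase TNKS2 (log2 fold change 0.71, adjusted p = 0.00481), APC, the scaffold of the complex (0.57, adjusted p = 0.00742), and the kinase GSK3B (0.50, adjusted p = 0.00805) rose. Without the trends TNKS2 stayed past the threshold (0.45, adjusted p = 0.0123) and APC (0.16, adjusted p = 0.0833) and GSK3B (0.21, adjusted p = 0.0676) did not, with 2 higher and 1 lower in all. Nuclear partners were even, 2 higher and 2 lower of 13, with PYGO1 (0.67, adjusted p = 0.00431) up and TLE4, a Groucho corepressor, down (-0.48, adjusted p = 0.009). PYGO1 lost its call with the trends removed (0.20, adjusted p = 0.141) and TLE4 kept it (-0.61, adjusted p = 0.00274). In that fit 2 nuclear partners were higher and 1 was lower, with a median of 0.15 against 0.01 as measured. The nuclear partners include both coactivators and inhibitors.

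Of the Wnt and β-catenin target genes, 6 of 15 were tested, 1 was lower and none was higher, with a median of -0.37 as measured and of 0.05 with the trends removed. DKK1, a secreted Wnt antagonist, stood at 47.3, 49.9 and 91.9 FPKM in shcon and at 23.8, 26.9 and 27.6 FPKM in shENO1 libraries (log2 fold change -1.18, adjusted p = 0.011; -1.23 with the trends removed, adjusted p = 0.0044). Shcon replicate 3 stood apart from the other controls in DKK1. AXIN2 and LGR5, the targets used most often as a readout of the pathway, and LEF1 and TCF7 were at most at 0.129 FPKM in any library. CCND1, at 44.1 FPKM, had a log2 fold change of 0.00 (adjusted p = 0.984) and was named after its values were seen.

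The receptors and assembly factors of fibronectin moved both ways while FN1 itself fell. Of 12 tested, 4 rose and 2 fell, with a median of 0.02. SDC4, a co-receptor for fibronectin, rose from 31.6 ± 2.27 to 58.2 ± 1.6 FPKM (SD, n = 3; log2 fold change 0.86, adjusted p = 0.00213) and ITGA5, the α-subunit of the classical fibronectin receptor, from 22.9 ± 1.65 to 37.2 ± 2.54 FPKM (0.68, adjusted p = 0.00431). FBLN1, a matrix protein that binds fibronectin, fell from 125 ± 27.3 to 70.8 ± 8.5 FPKM (-0.79, adjusted p = 0.0149). All 3 calls held with the trends removed, at 0.94 (adjusted p = 0.000426), 0.78 (adjusted p = 0.00304) and -0.60 (adjusted p = 0.0141), while the list as a whole then had 2 genes higher and 3 lower. The other genes called higher as measured, ITGAV (0.47, adjusted p = 0.0115) and ITGB8 (0.68, adjusted p = 0.00662), were named after their values were seen and did not pass with the trends removed, at 0.08 (adjusted p = 0.366) and 0.19 (adjusted p = 0.178).

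Around vimentin, 1 of 10 tested genes of intermediate filaments and their linkers was higher and 2 were lower, with a median of -0.13. Desmoplakin DSP, which anchors filaments at desmosomes, rose (log2 fold change 0.70, adjusted p = 0.0118), and the lamins LMNA (-0.63, adjusted p = 0.008) and LMNB2 (-0.40, adjusted p = 0.032) fell. DSP kept its call with the trends removed (0.56, adjusted p = 0.0111) and the lamins did not, at -0.28 (adjusted p = 0.123) and -0.04 (adjusted p = 0.573). In that fit 3 genes were higher and 1 was lower.

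Of 11 tested mesenchymal matrix and contractile genes, 3 fell, as FN1 did, and none rose, with a median of -0.27 as measured and -0.01 with the trends removed. THBS1, the gene of thrombospondin 1, stood at 6.23, 6.46 and 5.74 FPKM in shcon and at 1.65, 1.81 and 1.89 FPKM in shENO1 libraries (log2 fold change -1.36, adjusted p = 0.000668; -1.56 with the trends removed, adjusted p = 0.000201). The collagens COL5A1 (-0.72, adjusted p = 0.0396) and COL6A1 (-0.56, adjusted p = 0.0276) were also lower, COL5A1 also with the trends removed (-0.47, adjusted p = 0.0338) and COL6A1 not (-0.12, adjusted p = 0.238). COL3A1, SPARC, TNC and ACTA2 were at most at 0.252 FPKM in any library, so that several standard mesenchymal genes were scarcely detected in cells with abundant VIM.

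**Figure D4:**
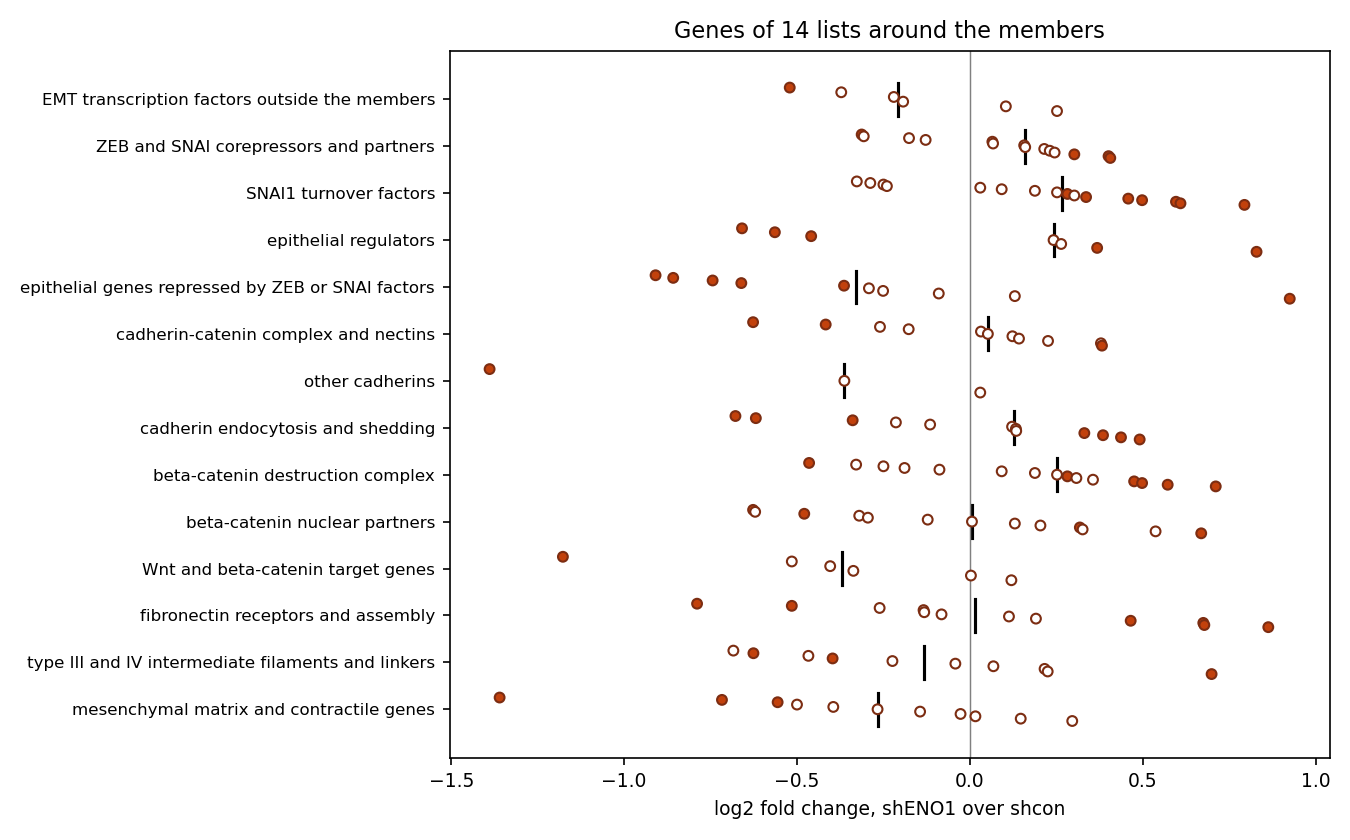
Log2 fold change of shENO1 over shcon (x axis) for each tested gene of the 14 lists (rows), filled where called and open where not, with a black line at the median of each list. The list of SNAI1 turnover factors has 7 genes called higher and none lower, the repressed epithelial genes have 5 called lower and 1 higher, and CDH5, THBS1 and DKK1 lie farthest to the left.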

How the data were processed

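RNA from 3 shcon and 3 shENO1 libraries of cells labelled SNU16 was sequenced, and the authors deposited 1 FPKM value per Ensembl gene and library. The submitters' processing notes list the build GRCh38 and the tools MultiQC, featureCounts and cutadapt with no version. Not given in the sources used here were the aligner, the annotation release and the FPKM program. The 10 genes and all lists were chosen with earlier results of these data known.

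The 15181 genes averaging 0.5 FPKM or more were tested in limma 3.58.1 under R 4.3.3 (lmFit, eBayes with a variance trend) on log2(FPKM + 1), shENO1 minus shcon, two-sided, with Benjamini-Hochberg adjustment over all of them and a threshold of 0.05. FPKM is not a count, so no count test was the main one. Whole fragments were recovered from the steps of FPKM (tolerance 0.05 fragments) for 30606 of 30716 genes, with the GENCODE 29 exon length or a fitted length, and are estimates. Trends over GC content and exon length (GENCODE 29) were estimated for each library by natural splines (4 degrees of freedom) on genes above 5 FPKM outside the lists. Intervals are 95% intervals from limma's moderated standard errors. The fit was tested on simulated data.

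Equally numbered libraries deviated from their group means together (correlations 0.495, 0.208 and 0.479 over 7456 genes), so the replicate number was also fitted as a block. Unequally numbered libraries gave -0.471 to 0.122. Deviations within a group cancel out, so these correlations are not independent, and their source was not tested. The labels do not call the numbers pairs. Other alternatives were a pseudocount of 0.1 or 0.5, no filter or one at 5 FPKM, eBayes robust or with no variance trend, quantile and median-of-ratios scaling, removal of the GC trend, the length trend or both, limma-voom on fragments, and leaving out each library. Limma-voom without the filter, with and without the trends, was chosen after seeing the data.

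Named in the text were all 10 genes, ENO1, up to 3 called genes per list with the largest fold changes at a mean of at least 1 FPKM, and for each called gene the 2 genes of most similar profile. A gene that this rule takes is not reported here. Promoters came from RefSeq (GRCh38.p14). Python 3.11.15 with pandas and matplotlib prepared the table and figures.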

Additional observations from a re-analysis of the deposited data

How the results depend on the processing

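ZEB1 and FN1 kept their direction and their calls in all 22 alternatives, with log2 fold changes of 0.29 to 0.81 and of -1.21 to -0.54. SNAI1 and VIM kept their direction and lost their calls as given above. SNAI2 turned negative under quantile normalization (-0.01), median-of-ratios scaling (-0.01), removal of the GC trend (-0.24) or of both trends (-0.19, and -0.19 with the replicate block), in limma-voom with the trends removed (-0.20), and without shcon replicate 3 or shENO1 replicate 3. CTNNB1 turned negative with the GC trend (-0.03), the length trend (-0.05) or both removed (-0.14, and -0.14 with the block) and in limma-voom with the trends removed (-0.16). With each library left out in turn, SNAI2 ranged from -0.08 to 0.11 and CTNNB1 from 0.11 to 0.23, the number of these genes called higher from 1 to 4 and lower from 1 to 1, and the number of all genes called, 4477 with every library, from 1509 without shENO1 replicate 2 to 5827 without shcon replicate 3. That number was 2704 without the filter, 2938 with the GC trend removed and 2437 in limma-voom without the filter and with the trends removed. The replicate block gave 5638 calls and changed the call of none of the 7 genes. The causes were not tested. The fewest fragments per library, 7 to 157, lay behind CDH2, SNAI1, CDH1 and ZEB2.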

Other observations

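Pseudogenes lie within introns of ZEB1 and CDH1, share none of their exons and were counted apart. SPTLC1P1, in ZEB1, stood at 0.235, 0 and 0.461 FPKM in shcon and at 3.29, 2.71 and 0.492 FPKM in shENO1 replicates 1, 2 and 3, so that 2 of the 3 shENO1 libraries stood apart from the third. FTLP14, in CDH1, stood at 0.127, 0.647 and 0.124 FPKM in shcon and at 0.759, 0.487 and 1.06 FPKM in shENO1 libraries, and the groups overlapped. ZEB2-AS1, which shares 1299 exonic bases with ZEB2 on the opposite strand, was listed at 0 in 5 libraries and at 0.0199 FPKM in shcon replicate 2.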
